A study of Mus musculus with 8 samples.

Results

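The 10 genes described here are the transcription factor NRF2 (gene Nfe2l2), its inhibitor Keap1 and 8 genes of antioxidant and cystine-glutathione metabolism: Nqo1, Hmox1, Gclc, Gclm, Srxn1, Txnrd1, Slc7a11 and Gsr. They were picked out of the table by gene name, as genes of a known pathway, with earlier results of these data known. All 10 were found among the 16122 genes of the deposited table. All 10 also passed the filter on low counts, which left 12351 genes for testing. Liver RNA of male C57BL/6J mice was sequenced in 4 libraries labelled NASH (nonalcoholic steatohepatitis, in which fat and inflammation build up in the liver) and 4 labelled WT. Every mouse carries the wild-type genotype, so no gene was deleted or added in either group. Mice were bought at 8 weeks of age and ate, for 28 weeks, a normal diet or one high in fat, cholesterol and fructose. The labels do not tie group names to diets, and it is an interpretation that NASH livers came from the rich diet. They number the replicates but do not say that each library is a separate animal, so the p-values rest on library-to-library spread, part of which could be technical.

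NRF2 is a transcription factor that is held in the cytoplasm and marked for breakdown by KEAP1, a sensor protein with reactive cysteines. When oxidants or electrophiles modify KEAP1, NRF2 escapes, pairs with small MAF proteins in the nucleus and binds antioxidant response elements near its target genes. The targets include enzymes that make and recycle glutathione, the main thiol antioxidant of hepatocytes, and the cystine importer that feeds glutathione synthesis in many cell types outside the hepatocyte.

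Promoter sequences of 4 genes are shown first, because NRF2 acts through antioxidant response elements near its target genes. The sequences are the 250 bases before the annotated start, written 5′ to 3′ on the gene's strand, from RefSeq on build GRCm38.p6, which lists promoters for 7 of the 10 genes. Capitals mark matches on either strand to TGACNNNGC, the core of the antioxidant response element, or to TGATGNAA, a core of the amino acid response element bound by ATF4, another stress-activated transcription factor that also acts on Slc7a11. Slc7a11 (chr3:50443614-50443863, minus strand) and Nqo1 (chr8:107403206-107403455, minus strand) are shown as genes that were higher in NASH. Gclm (chr3:122245307-122245556, plus strand) and Nfe2l2 (chr2:75704664-75704913, minus strand) are shown as genes that did not pass the test.
Slc7a11: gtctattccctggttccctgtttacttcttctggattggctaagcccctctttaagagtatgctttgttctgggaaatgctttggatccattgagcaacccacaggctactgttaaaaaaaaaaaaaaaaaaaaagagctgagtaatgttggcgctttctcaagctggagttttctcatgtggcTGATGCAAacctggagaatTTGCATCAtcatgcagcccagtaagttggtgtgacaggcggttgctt
Nqo1: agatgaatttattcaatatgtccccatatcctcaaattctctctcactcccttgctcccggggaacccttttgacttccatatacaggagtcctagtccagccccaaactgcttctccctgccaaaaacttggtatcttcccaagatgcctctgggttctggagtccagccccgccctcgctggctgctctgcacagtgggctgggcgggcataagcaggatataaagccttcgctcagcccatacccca
Gclm: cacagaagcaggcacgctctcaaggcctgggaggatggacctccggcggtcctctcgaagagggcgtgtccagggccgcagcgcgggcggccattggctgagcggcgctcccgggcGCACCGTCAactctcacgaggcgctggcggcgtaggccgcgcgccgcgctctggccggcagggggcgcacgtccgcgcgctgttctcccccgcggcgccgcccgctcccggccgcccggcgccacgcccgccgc
Nfe2l2: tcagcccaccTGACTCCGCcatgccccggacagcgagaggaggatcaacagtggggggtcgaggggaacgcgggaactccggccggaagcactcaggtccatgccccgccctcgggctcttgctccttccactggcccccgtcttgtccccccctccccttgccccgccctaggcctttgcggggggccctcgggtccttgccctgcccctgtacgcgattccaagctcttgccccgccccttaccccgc

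The window of Slc7a11 held a TGATGNAA match on each strand, at 66 and 47 bases before the start, and no TGACNNNGC match. That of Nqo1 held neither. Gclm held a TGACNNNGC match on the opposite strand 134 bases before its start, and Nfe2l2 held 1 on its own strand 240 bases before its start. Counting the 50 bases after the start as well, 4 of the 7 genes held TGACNNNGC (Nfe2l2, Gclm, Srxn1 and Txnrd1), against 14.0% of the 27025 genes listed and 12.4% of the 32851 windows of 300 bases. The match of Srxn1 lay 29 bases into the transcribed part, and that of Txnrd1 lay in 1 of its 3 listed promoters. TGATGNAA, a motif added after the data were seen, was in 4.51% of genes and, among the 7, in Slc7a11 only. A match is a description of the letters and not a binding site, and elements farther from the start lie outside these windows.

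In NASH livers 4 of the 10 genes rose and none passed the test for a fall, where no gene reached even an unadjusted p under 0.05 in edgeR and none was called by DESeq2 or limma-voom. The 4 were the cystine transporter subunit Slc7a11, the sulfiredoxin Srxn1, the heme oxygenase Hmox1 and the quinone reductase Nqo1. The other 6, which are the regulator pair Nfe2l2 and Keap1, both subunits of glutamate-cysteine ligase (Gclc and Gclm), the thioredoxin reductase Txnrd1 and the glutathione reductase Gsr, did not pass. Over all genes tested, 18.9% passed in either direction and 12.9% were higher in NASH (edgeR quasi-likelihood test, Benjamini-Hochberg adjusted p under 0.05). The median log2 fold change was 0.31 over the 10 genes, whatever size is given to the unbounded rise of Slc7a11, and 0.012 over all genes tested. For Slc7a11, Srxn1, Nqo1 and Nfe2l2 all NASH libraries lay above all WT libraries, whereas 26.8% of genes tested did not overlap in either direction and 14.6% did so with NASH above.

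The count of 4 changed with the libraries used. It fell to 2 without NASH replicate 4 or without WT replicates 1, 3 or 4, and 3 without NASH replicate 3 or WT replicate 2. Only Slc7a11 of the 4 kept its call in all 8 fits that each lacked a library. Srxn1 passed in 7 of these 8 fits, Nqo1 in 5 and Hmox1 in 2. Scaling by library totals alone in place of TMM (edgeR's trimmed mean of M-values, which lessens the weight of a few very abundant transcripts) shifted the median of all genes up by 0.36 on the log2 scale. Under that scaling 6 of the 10 passed, with Nfe2l2 and Gsr added. Calls over all 12351 genes tested went up as well, from 2338 with TMM to 3291. Of the calls over all genes, 93.3% were then higher in NASH, against 68.3% with TMM.

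**Figure D1:**
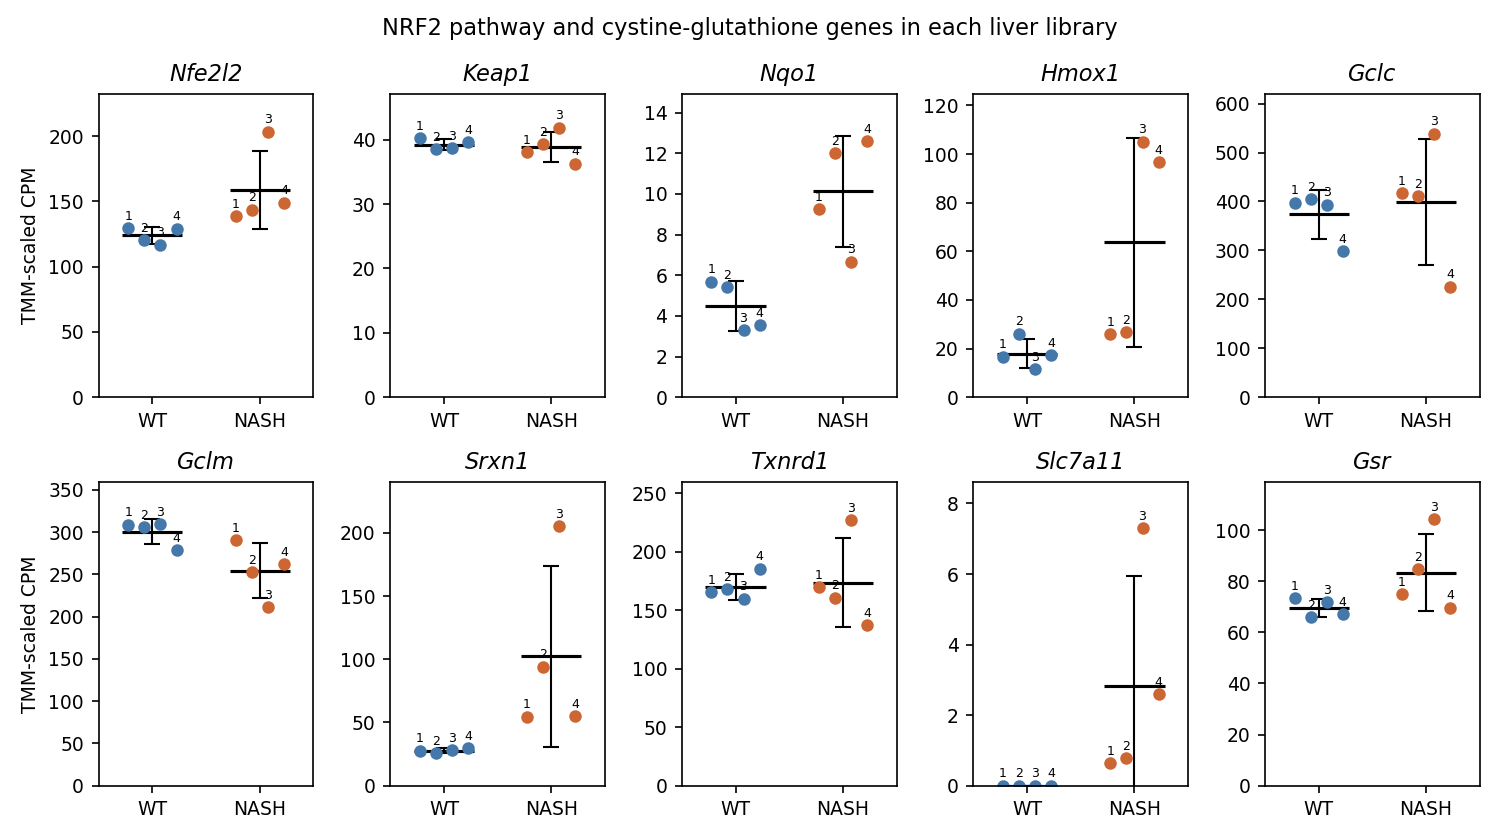
TMM-scaled CPM (read counts scaled to a common library size) of each gene, 1 panel a gene, on linear axes that start at 0. Points are libraries numbered by replicate, the horizontal line is the mean and the bar its SD (n = 4 each). WT libraries of Slc7a11 all lie at 0, and NASH replicate 3 is the highest NASH library in 8 of the 10 panels.

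The make-up of the libraries touches all results below. Total counts ranged from 25760117 to 28274613 in NASH and from 27204662 to 32684719 in WT. Hepatocyte markers summed to 47406 to 123726 CPM in NASH and 159826 to 197782 in WT, led by Alb (serum albumin) at 66120 ± 23004 against 131302 ± 14630 CPM (SD, n = 4 each). Of the 10 hepatocyte markers, 1 fell (Tat, an amino acid transaminase) and none rose. Lower were 3 at an unadjusted p under 0.05, 4 in DESeq2 and 1 in limma-voom. For 7 of the 10 all NASH libraries lay below all WT libraries, against 12.2% of all genes tested. Of 13 tested macrophage markers, 12 rose in edgeR and DESeq2 and 9 in limma-voom. Over all genes tested, 12.9% were higher and 6.00% lower in edgeR. Lymphocyte markers summed to under 8 CPM in each library, with 0 of 7 tested passing in edgeR, 0 at an unadjusted p under 0.05 and 0 in DESeq2 or limma-voom. In bulk tissue, fewer cells of a type and less RNA per cell cannot be told apart.

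The regulators are taken first. Nfe2l2 (ENSMUSG00000015839, chromosome 2, 75675513 to 75704641), which encodes NRF2, stood at 139, 144, 204 and 149 CPM in NASH replicates 1 to 4 and at 130, 120, 117 and 129 CPM in WT replicates 1 to 4. Every NASH library lay above every WT library, by a narrow margin except in NASH replicate 3. Its log2 fold change of 0.36 ± 0.14 (SE) did not pass (adjusted p = 0.11). With library totals alone it was 0.75 and passed (adjusted p = 0.0327), and without NASH replicate 3 it was 0.20 (adjusted p = 0.192).

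Keap1 (ENSMUSG00000003308, chromosome 9, 21229730 to 21239361) had the tightest spread of the 10 genes relative to its level. Its level was 38.8 ± 2.35 CPM in NASH and 39.2 ± 0.801 CPM in WT (SD), and the libraries of the groups overlapped. The log2 fold change was −0.01 ± 0.08 (adjusted p = 0.914), and 0.36 with library totals alone, the same size as the shift of all genes under that scaling. The ratio of Keap1 to Nfe2l2 CPM was 0.273, 0.273, 0.206 and 0.243 in NASH replicates 1 to 4 and 0.307 to 0.331 in WT. All NASH libraries thus had less Keap1 mRNA per Nfe2l2 mRNA than any WT library, a ratio that scaling does not change and that was given no test. An antisense gene overlaps exons of Keap1 in GENCODE M21, and the strand setting of the counting is not given in the sources used here.

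Around these regulators, a list of 13 partners and other regulators was read from the same fit. Of 12 tested, 1 rose and 11 did not pass, with a median log2 fold change of −0.07. None fell in edgeR or limma-voom, against 2 at an unadjusted p under 0.05 and 1 in DESeq2. The gene that rose was Mafk, a small MAF protein that pairs with NRF2 (18.0 ± 3.71 against 11.1 ± 2.36 CPM, log2 fold change 0.70 ± 0.19, adjusted p = 0.036). Its call held in 2 of the 8 fits with a library left out. Cul3, the ubiquitin ligase scaffold that KEAP1 recruits, had a log2 fold change of −0.34 ± 0.12 (adjusted p = 0.0704), and of 0.00 with library totals alone. Bach1, a repressor that competes with NRF2 at Hmox1, had −0.22 ± 0.17 (adjusted p = 0.371). Sqstm1, the p62 adaptor that binds KEAP1 and is itself an NRF2 target, stood at 396, 489, 723 and 384 CPM in NASH replicates 1 to 4 and 306 to 407 in WT (0.52 ± 0.23, adjusted p = 0.135). With library totals alone Sqstm1 was at 0.93 and passed (adjusted p = 0.0404).

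**Figure D2:**
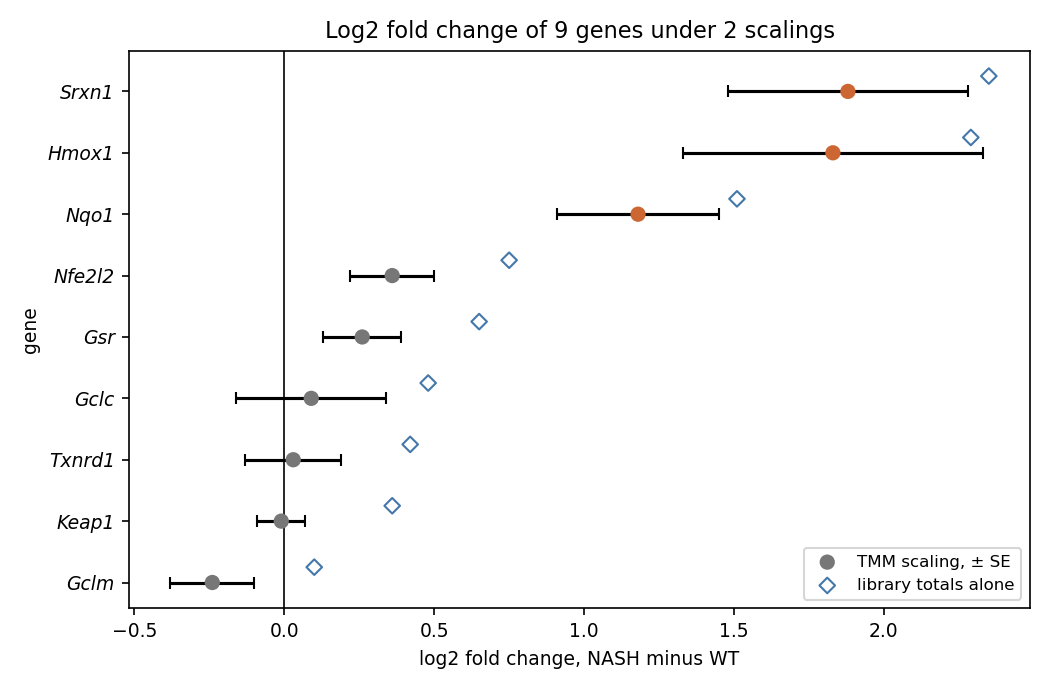
Log2 fold change of NASH over WT for 9 of the 10 genes. Filled points are the TMM-scaled fit with their SE (orange passed, grey did not), and open diamonds are the fit with library totals alone. Slc7a11 is left out because its WT group has no count. Srxn1, Hmox1 and Nqo1 lie at 1.88, 1.83 and 1.18, apart from the other 6.

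Slc7a11 (ENSMUSG00000027737, chromosome 3, 49892526 to 50443614) encodes xCT, the subunit that exchanges extracellular cystine for glutamate. It had 16, 21, 288 and 78 counts in NASH replicates 1 to 4 and no count in any WT library. In CPM these were 0.63, 0.777, 7.31 and 2.59. The groups did not overlap, and the NASH libraries themselves spanned a wide range. The exact 95% Poisson interval of a count of 0 reached up to 0.126 to 0.155 CPM in the WT libraries (counting error only). That of the lowest NASH library, replicate 1, was 0.36 to 1.02 CPM. With 3 counts given to the WT libraries together as a floor, the mean of the 4 NASH libraries was 103-fold higher than that floor. Pooling the NASH reads, which weights the libraries by their size, gave 120-fold. Taken alone against that floor, replicates 1 to 4 were 22.9-, 28.2-, 265- and 94.1-fold higher. Without replicate 3 the mean over the other 3 was 48.4-fold higher. These folds take the NASH counts as they stand, without their own counting error. The edgeR test of Slc7a11, which used no such floor, gave an adjusted p of 0.0168.

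Slc3a2, the heavy chain that carries xCT and several other amino acid transporters to the membrane, was at far higher counts and did not pass. It stood at 16.9, 20.8, 49.2 and 24.8 CPM in NASH replicates 1 to 4 and 17.2 to 21.5 CPM in WT (log2 fold change 0.45 ± 0.30, adjusted p = 0.30). NASH replicate 3 was again the highest. The ratio of Slc7a11 to Slc3a2 CPM was 0.0373, 0.0374, 0.149 and 0.105 in NASH replicates 1 to 4 and 0 in WT.

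Other genes of cystine and cysteine supply were read as a list of 17, of which 15 were tested. Of these 2 rose and 13 did not pass, and the median log2 fold change was −0.27 (0.14 with library totals alone). None fell in edgeR or limma-voom, against 3 at an unadjusted p under 0.05 and 3 in DESeq2. Mfsd12, which moves cysteine into lysosomes and melanosomes, rose from 2.96 ± 0.572 to 8.60 ± 4.11 CPM (log2 fold change 1.54 ± 0.36, adjusted p = 0.0203). Slc1a4, a neutral amino acid transporter whose substrates include cysteine, rose from 0.684 ± 0.503 to 3.72 ± 2.24 CPM (2.46 ± 0.62, adjusted p = 0.0259). With a library left out, the call of Mfsd12 held in 4 of 8 fits and that of Slc1a4 in 3.

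The list also holds genes of methionine metabolism, through which hepatocytes make cysteine, and none of those named next passed. Cth, the cystathionine gamma-lyase that yields cysteine, stood at 261, 214, 76.2 and 261 CPM in NASH replicates 1 to 4 against 358 to 593 CPM in WT (log2 fold change −1.10 ± 0.36, adjusted p = 0.0615). Ahcy, the adenosylhomocysteinase upstream of it, was at 963 ± 473 against 2065 ± 114 CPM (−1.10 ± 0.36, adjusted p = 0.0587). Gnmt, a methyltransferase that uses up S-adenosylmethionine, was at 372 ± 208 against 993 ± 193 CPM (−1.42 ± 0.45, adjusted p = 0.0568). These 3 genes were picked because all their NASH libraries lay below all their WT libraries, which was so for 12.2% of all genes tested. With library totals alone Ahcy and Gnmt passed (adjusted p = 0.0449 and 0.0453). The groups overlapped for Cbs, the cystathionine synthase before Cth (−0.33 ± 0.20, adjusted p = 0.246), for Mat1a, which makes S-adenosylmethionine (−0.49 ± 0.33, adjusted p = 0.305), and for Bhmt, which returns homocysteine to methionine (−0.62 ± 0.42, adjusted p = 0.312). Bhmt was at its highest of the 8 libraries, 6496 CPM, in NASH replicate 4.

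Gclc (ENSMUSG00000032350, chromosome 9, 77754535 to 77794485) is the catalytic subunit of glutamate-cysteine ligase, the rate-limiting enzyme of glutathione synthesis. It stood at 417, 411, 539 and 226 CPM in NASH replicates 1 to 4 and at 397, 405, 394 and 299 CPM in WT replicates 1 to 4. The NASH libraries held both the highest and the lowest of the 8 values. Its log2 fold change was 0.09 ± 0.25 (adjusted p = 0.819) and turned to −0.10 without NASH replicate 3.

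Gclm (ENSMUSG00000028124, chromosome 3, 122245557 to 122270732), the modifier subunit that raises the enzyme's efficiency, did not pass either. It stood at 291, 253, 212 and 262 CPM in NASH replicates 1 to 4 and at 309, 306, 309 and 278 CPM in WT replicates 1 to 4. NASH replicate 3, the highest for Gclc, was the lowest for Gclm. The log2 fold change was −0.24 ± 0.14 (adjusted p = 0.249), and 0.10 with library totals alone, so its direction depended on scaling. The ratio of Gclm to Gclc CPM was 0.697, 0.615, 0.393 and 1.16 in NASH replicates 1 to 4 and 0.757 to 0.931 in WT, so the NASH libraries spread on both sides of the WT range. Exons of Gclm overlap a pseudogene on its strand and a noncoding transcript on the other, which makes its counts less certain.

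In the rest of glutathione synthesis and turnover, 2 of 12 tested genes rose and 1 fell, with a median log2 fold change of −0.06. Gss, the glutathione synthetase that completes the tripeptide, stood at 50.6, 61.0, 64.3 and 65.1 CPM in NASH replicates 1 to 4 and at 31.9 to 43.6 CPM in WT. Its groups did not overlap, its log2 fold change was 0.63 ± 0.13 (adjusted p = 0.0138), and the call held with each library left out. Chac1, a stress-induced enzyme that degrades glutathione, rose from 1.34 ± 0.447 to 4.80 ± 2.33 CPM (1.84 ± 0.41, adjusted p = 0.0178). Chac2, a related enzyme, fell from 35.6 ± 5.66 to 22.8 ± 4.90 CPM (−0.64 ± 0.17, adjusted p = 0.0322), but with library totals alone it did not pass (adjusted p = 0.154). With a library left out, the call of Chac1 held in 6 of 8 fits and that of Chac2 in 3.

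Gsr (ENSMUSG00000031584, chromosome 8, 33652523 to 33698163) regenerates reduced glutathione with NADPH. It stood at 75.0, 84.7, 104 and 69.7 CPM in NASH replicates 1 to 4 and 65.9 to 73.4 CPM in WT, so replicate 4 lay inside the WT range. Its log2 fold change of 0.26 ± 0.13 did not pass (adjusted p = 0.185), whereas scaling by totals gave 0.65 and a call (adjusted p = 0.0428). Of 9 tested genes that supply NADPH, 1 rose (median −0.18), and none fell in edgeR or limma-voom, against 2 at an unadjusted p under 0.05 and 1 in DESeq2. The gene that rose was Pgd, phosphogluconate dehydrogenase of the pentose phosphate pathway and an NRF2 target (69.5 ± 17.3 against 37.4 ± 6.55 CPM, 0.89 ± 0.19, adjusted p = 0.0151). G6pdx, the first enzyme of that pathway, had a log2 fold change of 1.25 ± 0.42 (adjusted p = 0.066). Nnt, the mitochondrial transhydrogenase whose gene carries a deletion in the C57BL/6J strain, was under 2.5 CPM in each library.

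Srxn1 (ENSMUSG00000032802, chromosome 2, 152105516 to 152111376), which repairs overoxidised peroxiredoxins, was among the clearest of the rises. It stood at 54.7, 94.2, 206 and 54.8 CPM in NASH replicates 1 to 4 and at 27.6, 25.6, 27.9 and 29.9 CPM in WT replicates 1 to 4. The WT libraries were tightly grouped and each NASH library was well above them. Srxn1 rose by 1.88 ± 0.40 on the log2 scale (adjusted p = 0.0155). It was 1.28 without NASH replicate 3 (adjusted p = 0.00587), and the call was lost without WT replicate 1 (adjusted p = 0.0528).

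Txnrd1 (ENSMUSG00000020250, chromosome 10, 82833951 to 82897712), the cytosolic selenoprotein that reduces thioredoxin, did not follow Srxn1. It was at 174 ± 38.3 CPM in NASH and 170 ± 11 CPM in WT livers (SD), with a log2 fold change of 0.03 ± 0.16 (adjusted p = 0.899). NASH replicate 3 was the highest of the 8 libraries at 227 CPM and NASH replicate 4 the lowest at 137. Among 12 other genes of the thioredoxin system, none rose with TMM scaling in edgeR, in DESeq2, in limma-voom or at an unadjusted p under 0.05, and 2 fell, with a median of −0.25 (0.08 with library totals alone). They were Txnrd3, a related reductase (8.40 ± 0.696 in WT to 5.43 ± 0.335 CPM in NASH, −0.63 ± 0.14, adjusted p = 0.0191), and Prdx4, a peroxiredoxin of the endoplasmic reticulum (−0.49 ± 0.14, adjusted p = 0.0375). With library totals alone neither passed (adjusted p = 0.28 and 0.395), and Prdx3, a mitochondrial peroxiredoxin, passed as higher at 0.42 (adjusted p = 0.0381).

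Nqo1 (ENSMUSG00000003849, chromosome 8, 107388225 to 107403206) reduces quinones and is a classic NRF2 target. It stood at 9.26, 12.0, 6.67 and 12.6 CPM in NASH replicates 1 to 4 and at 5.69, 5.39, 3.29 and 3.53 CPM in WT replicates 1 to 4. The groups did not overlap, and NASH replicate 3 was the lowest NASH library. Nqo1 rose by 1.18 ± 0.27 on the log2 scale (adjusted p = 0.0184), and the adjusted p ranged from 0.0114 to 0.0553 with a library left out. The call was lost without NASH replicate 4 and without WT replicates 3 or 4.

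Hmox1 (ENSMUSG00000005413, chromosome 8, 75093621 to 75100589) degrades heme and is strongly expressed in iron-recycling macrophages as well as induced by NRF2. It stood at 26.0, 26.9, 105 and 96.7 CPM in NASH replicates 1 to 4 and at 16.7, 26.1, 11.6 and 17.3 CPM in WT replicates 1 to 4. NASH replicates 3 and 4 were far above WT, and NASH replicates 1 and 2 lay beside WT replicate 2. The log2 fold change was 1.83 ± 0.50 (adjusted p = 0.0336). This call was lost without NASH replicate 3 or 4 (adjusted p = 0.0901 and 0.091), without any WT library (0.052 to 0.0925) and with limma-voom (0.0693). Among 5 tested genes of heme breakdown and iron storage, 1 rose: Blvra, a biliverdin reductase that acts after heme oxygenase (12.4 ± 1.59 against 8.39 ± 0.514 CPM, 0.57 ± 0.14, adjusted p = 0.0236). That call held in 2 of the 8 fits with a library left out. Hmox2, the constitutive heme oxygenase, had a log2 fold change of 0.13 ± 0.13 (adjusted p = 0.488).

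The sums of macrophage, Kupffer cell, neutrophil and bile duct markers were highest in NASH replicate 3 and next in replicate 4, as were Hmox1 and Slc7a11. The 13 macrophage markers in the table summed to 390, 510, 2273 and 1281 CPM in NASH replicates 1 to 4 and to 64.6 to 174 CPM in WT. Bile duct markers summed to 107, 253, 755 and 413 CPM in NASH replicates 1 to 4. The order with replicate 3 highest and 4 next was not particular to these markers, since Slc3a2 and Psat1, an ATF4 target gene, had it too. Over all genes tested, 32.0% were highest of the NASH libraries in replicate 3, and the share with replicate 4 next was not counted. Cd68, a lysosomal glycoprotein of macrophages, rose by 2.66 ± 0.51 on the log2 scale (adjusted p = 0.0123), and Csf1r was under 1 CPM in all 8 libraries. Kupffer cell markers summed to 336, 321, 1111 and 712 CPM in NASH replicates 1 to 4 and 112 to 342 in WT, with 1 of 5 higher. Among them, Clec4f had a log2 fold change of 0.67 ± 0.26 (adjusted p = 0.103) and Timd4 of −1.10 ± 0.51 (adjusted p = 0.153). The 6 neutrophil markers summed to 2.36, 2.89, 68.2 and 20.2 CPM in NASH replicates 1 to 4 and 0.891 to 3.75 in WT, with Ly6g under 1 CPM throughout. Of 2 tested, 0 passed in edgeR and in limma-voom, and 2 were higher at an unadjusted p under 0.05 and in DESeq2. The part of these cells in the rises of Hmox1 and Slc7a11 was not tested.

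Markers of other cell types were read beside the 12.9% of all genes tested that were higher in NASH. Stellate cell and fibroblast markers summed to 286 to 1074 CPM in NASH and 142 to 205 in WT, with 7 of 9 higher. Bile duct markers summed to 80.4 to 120 CPM in WT, with 2 of 6 tested higher in NASH. Endothelial markers summed to 135 to 265 CPM in NASH and 110 to 198 in WT, ranges that overlap. Of 5 tested, 1 was higher (Vwf) in edgeR and 0 in limma-voom. Clec4g and Kdr had negative log2 fold changes (−0.19 and −0.16) that did not pass, and Stab2 was under 1 CPM in all libraries. The part of these cell types in the results was not tested either.

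**Figure D3:**
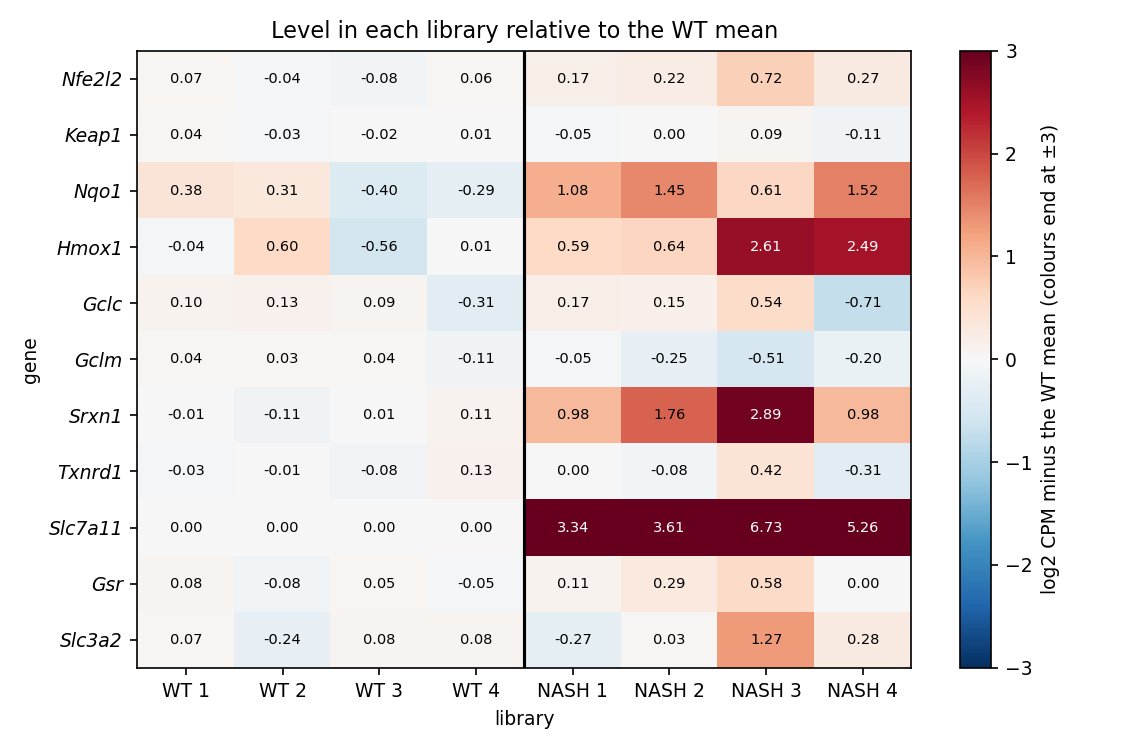
Level of each of the 10 genes and of Slc3a2 in each library, as log2 CPM (prior count of 2) minus the WT mean. Columns are libraries, with WT left of the line, and the colours end at ±3. NASH replicate 3 is highest among the NASH libraries for 8 of the 10 genes and lowest for Nqo1 (0.61) and Gclm (−0.51), and Slc7a11 spans 3.34 to 6.73.

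Within the NASH group the 10 genes split by library. NASH replicate 3 had the highest level of the 4 for 8 genes (Nfe2l2, Keap1, Hmox1, Gclc, Srxn1, Txnrd1, Slc7a11 and Gsr) and the lowest for Nqo1 and Gclm. Over all genes tested, 32.0% were highest of the NASH libraries in replicate 3. NASH replicate 4 was the lowest of the 4 for Keap1, Gclc, Txnrd1 and Gsr, and replicate 1 for Nfe2l2, Hmox1, Srxn1 and Slc7a11. Replicate 3 also had the lowest hepatocyte marker sum of the 8 libraries, the highest macrophage sum and the largest TMM factor (1.40 against 0.967, 1.05 and 1.15 in the other NASH libraries and 0.873 to 0.901 in WT).

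Per kilobase of exon (lengths from GENCODE M21), the level order in WT livers ran from Gclc at 99.2 ± 13.2 CPM per kilobase, through Gclm at 47.8 ± 2.38, Nfe2l2 at 32.7 ± 1.69, Gsr at 25.3 ± 1.33 and Txnrd1 at 24.0 ± 1.56, to Hmox1 at 10.2 ± 3.43, Srxn1 at 9.84 ± 0.632, Keap1 at 8.37 ± 0.171 and Nqo1 at 2.88 ± 0.798 (SD, n = 4), with Slc7a11 at 0. The neighbours Gsr and Txnrd1, and likewise Hmox1 and Srxn1, differed by less than the larger SD of the pair, while Srxn1 and Keap1 differed by more. In NASH Gclc was still first at 106 ± 34.2 CPM per kilobase, while Hmox1 and Srxn1 had means of 36.4 ± 24.6 and 36.3 ± 25.3, between Gclm at 40.4 ± 5.20 and Gsr at 30.3 ± 5.52, within wide spreads. Slc7a11 was last at 0.203 ± 0.224 CPM per kilobase. Thus the 4 genes that rose were 4 of the 5 lowest in WT livers on this scale, and the 5 highest did not pass, a description with no test. The same WT libraries set both this order and the fold changes, so a low WT value by itself favours a high fold change.

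The wider set of NRF2 target genes also split. Of 30 tested, 9 rose, 1 fell and 20 did not pass, where 12.9% of all genes tested were higher and 6.00% lower. With a library left out, 3 of these calls held in all 8 fits. The median log2 fold change was 0.06 (0.37 with library totals alone, close to the shift of all genes). The 2 smallest p-values were those of glutathione transferases. Gstm3 stood at 102, 210, 64.7 and 78.2 CPM in NASH replicates 1 to 4 and at 16.6 to 26.7 CPM in WT (2.54 ± 0.37, adjusted p = 0.00588), and Gsta1 rose from 1.89 ± 0.319 to 11.1 ± 7.40 CPM (2.55 ± 0.50, adjusted p = 0.013). Both calls held with each library left out. Cbr3, a carbonyl reductase, and the conjugate exporters Abcc1 and Abcc4 rose by 2.67 ± 0.60, 1.70 ± 0.40 and 1.33 ± 0.27 (adjusted p = 0.0176, 0.0211 and 0.0139), calls that held in 5, 4 and 8 of the 8 fits with a library left out.

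The same families held genes with the opposite sign. Gstp1, an abundant transferase of the male mouse liver, fell from 481 ± 125 to 196 ± 105 CPM (−1.30 ± 0.38, adjusted p = 0.0407), a call that held in 1 of 8 fits with a library left out. Gsta3, an alpha-class transferase, stood at 1968, 1517, 277 and 278 CPM in NASH replicates 1 to 4 and at 1983 to 2226 CPM in WT (−1.07 ± 0.61, adjusted p = 0.237). NASH replicates 3 and 4 were far below WT for this gene, and replicate 1 was just below the WT range. Some glutathione transferases of a class have near-identical paralogs, such as Gsta1 with Gsta2 and Gstp1 with Gstp2, and reads that they share may be split or lost, so these values are less certain.

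**Figure D4:**
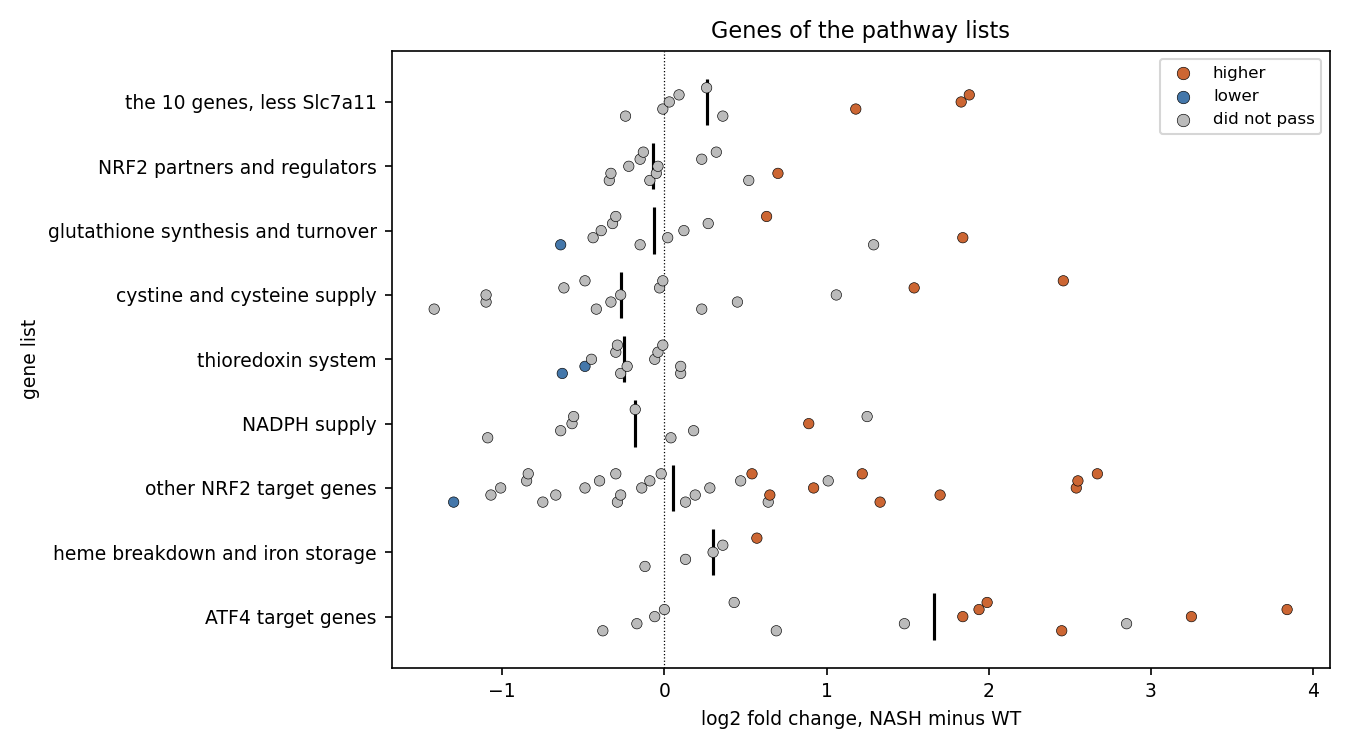
Log2 fold change (NASH minus WT) of each tested gene of the 8 pathway lists and of the 10 genes less Slc7a11. Each point is a gene, orange higher, blue lower and grey not passing, vertical lines are medians, and vertical scatter within a row only separates points. The ATF4 list has a median of 1.66, and the other 7 lists have medians from −0.27 to 0.30.

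ATF4 target genes were read beside Slc7a11, which both factors regulate. ATF4 is switched on by amino acid shortage and endoplasmic reticulum stress. Of 14 tested, 6 rose and 8 did not pass, with a median log2 fold change of 1.66, and limma-voom called 2. The share of all genes tested that was higher was 12.9%. With a library left out, 2 of the 6 calls (Psat1 and Vldlr) held in all 8 fits, and those of Trib3 and Mthfd2 held in 3. Psat1, an enzyme of serine synthesis, stood at 1.54, 2.30, 17.3 and 5.02 CPM in NASH replicates 1 to 4 and 0.377 to 0.632 CPM in WT (3.84 ± 0.78, adjusted p = 0.0138). NASH replicate 3 was highest, as for Slc7a11. Vldlr, the very low density lipoprotein receptor, rose by 2.45 ± 0.49 (adjusted p = 0.0131) with its highest level, 15.2 CPM, in NASH replicate 1. The other 4 were Aldh18a1 of proline synthesis, the folate enzyme Mthfd2, the pseudokinase Trib3 and Chac1. Atf4 itself had a log2 fold change of 0.00 ± 0.23 (adjusted p = 0.999). In the 300-base windows, 6 of the 16 genes of the list held TGATGNAA (Asns, Trib3, Fgf21, Vldlr, Atf3 and Chac1), against 4.51% of all genes. The list was made of ATF4 targets and the motif is one that ATF4 binds. A share above that of all genes thus follows from the choice of list and says nothing about ATF4 in these livers.

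Over the 8 lists together, 107 genes were tested, of which 21 rose and 4 fell. Over all genes tested, 12.9% were higher and 6.00% lower. The 25 calls became 7 without WT replicate 1 or WT replicate 3, 12 without NASH replicate 4, 13 without WT replicate 2, 16 without WT replicate 4 and 38 without NASH replicate 1.

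As a description of pattern, the tested genes whose log2 CPM was most like each rising gene over the 8 libraries were found by Pearson's r. They were Eif2ak3 and Sae1 for Srxn1 (r = 0.998 and 0.978), Bin2 and Lhfpl2 for Hmox1 (0.997 and 0.996), Apobec1 and Fmnl1 for Slc7a11 (0.996 and 0.995), and Lpar1 and Astn2 for Nqo1 (0.975 and 0.967). Eif2ak3 encodes PERK, a kinase that senses endoplasmic reticulum stress. The 8 libraries fall into 2 groups, so a gene that differs between the groups reaches a high r by that alone, and each r is the highest of 12351 tested genes.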

How the data were processed

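Liver RNA was extracted with Trizol and prepared with a stranded total RNA kit (TruSeq), per the labels' protocols. The submitters' processing notes name the aligner HISAT2 and the read counter HTSeq 0.9.1, and list builds mm9 and mm10 without roles. No strand setting or annotation for the counting is given in those notes. The authors deposited a block of raw counts (per the file headers), which was used, and a normalized block, which was not.

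All 8 libraries were fitted with edgeR 4.0.16 (R 4.3.3, quasi-likelihood F-test, robust, TMM scaling, default low-count filter, no covariates), two-sided, with Benjamini-Hochberg adjustment over 12351 genes and a threshold of 0.05. All adjusted p-values are from this fit unless another is named. The SE is the log2 fold change over the root of F. Levels are TMM-scaled CPM, mean ± SD. Counting intervals and floors cover counting error only. Alternatives used limma-voom 3.58.1, DESeq2 1.42.0, other scalings and filters, a replicate block and each library left out. Gene positions are from GENCODE M21 (GRCm38), matched by gene ID.

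The 10 genes and the lists were chosen with earlier results of these data known. The rule named the 10 genes, Slc3a2, the 2 genes with the smallest p per pathway list, the 2 most similar genes for each rising gene, and the leading markers of each cell type. Other genes named were picked after their values were seen. Slc7a9, G6pd2, Fth1 and Adgre1 are not analysed here.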

Additional observations from a re-analysis of the deposited data

Results flagged for a closer look

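In each group of 4 libraries the levels of the 10 genes and Slc3a2 and the 3 ratios were checked for a library far from the others, and 5 of 26 group values were picked out. Chance picks about 1 in 20 such groups. Nfe2l2 in NASH replicate 3 stood at 204 CPM against 139 to 149 in the other NASH libraries. In WT replicate 4, Gclc was lowest at 299 CPM against 394 to 405, and Gclm was lowest at 278 against 306 to 309. The ratio of Gclm to Gclc in the same library was the highest in WT, at 0.931 against 0.757 to 0.786. Slc3a2 in WT replicate 2 was lowest at 17.2 CPM against 21.3 to 21.5.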

How the results depend on the processing

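Of 150 values of the 10 genes under 15 alternatives each, 127 kept their direction and side of the threshold, 14 lost the call, 2 gained it and 7 changed sign, all 7 in genes that did not pass. Scaling by library totals alone turned Keap1 to 0.36 and Gclm to 0.10, and limma-voom turned Txnrd1 to −0.002. With a library left out, Keap1 ranged from −0.07 to 0.002 (positive without NASH replicate 4), Gclc from −0.10 to 0.27 (negative without NASH replicate 3 and, at −0.006, without WT replicate 4) and Txnrd1 from −0.13 to 0.12 (negative without NASH replicate 3). Calls then ranged from 821 to 3742 over all genes (2338 with all 8), from 2 to 4 over the 10 genes and from 7 to 38 over the pathway lists. DESeq2's Wald test called 3527 genes, 4 of the 10 among them. The count of the 10 genes was 3 with limma-voom or without the low-count filter, where Hmox1 was lost (adjusted p = 0.0693 and 0.0534). Of the 7 genes with a listed promoter, 4 held TGACNNNGC in at least 1 promoter and 1 held the same letters followed by A. Another motif, TGATGNAA, was added after the data were seen and was held by 1 gene. The causes of these changes were not tested.

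The shared replicate numbers do not mark pairs in the labels, and same-numbered libraries did not deviate together (r = 0.0344, −0.14, −0.144 and −0.0157 across genes for numbers 1 to 4). Adding the number as a replicate block, which leaves fewer residual degrees of freedom, gave 618 calls over all genes, 2 over the 10 genes (Slc7a11 and Nqo1) and 3 over the pathway lists. With no WT count, the fold of Slc7a11 has no upper limit, and its values against the floor leave out the counting error of the NASH libraries.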
